A study of Mus musculus with 5 samples.

Results

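Hmox1-high cells of injured muscle were 778 of the 5744 cells with at least 5000 UMIs (unique molecular identifiers, counts of captured transcripts) in SC5, 1 of the 5 single-cell libraries of the study. They were chosen by a measured value: at least 10 Hmox1 UMIs per 10000 UMIs of the cell, among cells in which 350 to 8000 genes were detected and mitochondrial transcripts took less than 20% of UMIs. They made up 13.5% of these cells (95% exact binomial interval 12.7 to 14.5%, counting error only). The 2751 cells under 2 Hmox1 UMIs per 10000 (47.9%), called Hmox1-low cells, were the comparison, and the 2215 cells in between (38.6%) belonged to neither class. The filters left 6727 of the 6915 barcodes of SC5, and the 5 libraries together held 32547 such cells, of which 23833 had 5000 UMIs.

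All libraries came from GFP+ cells sorted from the hindlimb skeletal muscle around the tibia of adult Prx1Cre;RosamTmG mice. The mice were of the C57BL6/J background. In them Cre driven by Prx1 marks the mesenchymal lineage of the limb for life with membrane GFP. Cells outside that lineage, such as blood, endothelial and muscle fibre cells, are not marked. The conditions were d0 (uninjured, SC3), d3 post-fracture (SC4), and 3 more libraries labelled d5 post-fracture (SC5), d3 post-polytrauma (SC_9) and d5 post-polytrauma (SC10). Polytrauma here means a non-stabilized tibial fracture with mechanical injury of the muscle beside it. Cells of 2 mice went into each library and a condition had 1 library, so conditions were not compared by a test. The labels of SC5 and SC_9 disagreed with the cell numbers in the study's own source data, by which SC5 would be d3 post-polytrauma and SC_9 d5 post-fracture. The condition of SC5 was therefore uncertain, and the comparison of cells within SC5 did not depend on it.

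The libraries differed in depth. SC5 held 103780343 UMIs, SC3 18247307, SC4 100403837, SC_9 56084145 and SC10 204474562. In SC3, 17.1% of the cells that passed the filters reached 5000 UMIs, against 85.4% in SC5. The barcodes of SC5 overlapped those of SC3 at 525 and those of SC4 at 508 sequences, and those of SC_9 and SC10 at none, although the labels give 1 kit for all 5. Whether the kits differed was not tested, and levels in different libraries are given side by side only. Among Hmox1-high cells 21 (2.70%) carried such a barcode and among Hmox1-low cells 143 (5.20%). In SC_9, 61.0% of the cells with at least 5000 UMIs carried a barcode also found in another library.

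Hmox1 encodes heme oxygenase 1, the enzyme that opens the ring of heme to give biliverdin, carbon monoxide and iron. It is induced by heme and by oxidants, largely through NRF2 (gene Nfe2l2), a transcription factor that KEAP1 holds at low level until electrophiles or oxidants modify it. NRF2 then pairs with a small MAF protein on the antioxidant response element and raises genes for cystine import, glutathione synthesis, thiol repair and NADPH supply. BACH1 represses the same elements until heme binds it. In injured muscle, blood leaks from torn vessels and fibres die, so heme and oxidants are both released close to the mesenchymal progenitors, which are also called fibro-adipogenic progenitors (FAPs).

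Hmox1 (chr8:75093621-75100589, + strand, mm10) stood at 2000 CPM (UMIs of the gene scaled to a total of 1e6 UMIs) summed over the Hmox1-high cells (95% Poisson interval 1974 to 2027) and at 78.0 CPM (75.6 to 80.4) in Hmox1-low cells, which is what the rule selected. Single Hmox1-high cells had 6 to 167 Hmox1 UMIs, with a median of 22.5. Per 10000 UMIs the lowest cell had 10.0, the quartiles were 12.6, 16.4 and 23.9, and the highest cell had 101. These cells held 50.4% of all Hmox1 UMIs of the deep SC5 cells. The distribution had no gap at the threshold: 15% of cells lay between 5 and 10, 8.57% between 10 and 20 and 4.98% at 20 or more. The 124 cells just outside the threshold (9 to 10) had 292 CPM of Srxn1 and 34.6 of Slc7a11, and the 72 cells just inside (10 to 11) had 312 and 51.2. The Srxn1 intervals of the 2 sides overlapped (269 to 317 and 279 to 348), and those of Ftl1 did not (5855 to 6070 outside and 6449 to 6763 inside). The class is a range of Hmox1 levels set by the threshold.

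By the same rule, 109 of 918 cells were Hmox1-high in SC3 (11.9%, interval 9.85 to 14.1%), 50 of 4907 in SC4 (1.02%, 0.757 to 1.34%), 13 of 1414 in SC_9 (0.919%, 0.490 to 1.57%) and 248 of 10850 in SC10 (2.29%, 2.01 to 2.58%). When every cell was thinned to 5000 UMIs the shares were 16.0% in SC5, 13.0% in SC3, 1.24% in SC4, 0.919% in SC_9 and 2.98% in SC10. SC5 and uninjured SC3 were the high libraries and the other 3 the low ones, in both counts. Hmox1 over all cells that passed the filters was 436 CPM in SC5, 475 in SC3, 89.8 in SC4, 78.9 in SC_9 and 137 in SC10. With 1 library each, differences between conditions and between preparations cannot be told apart.

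**Figure D1:**
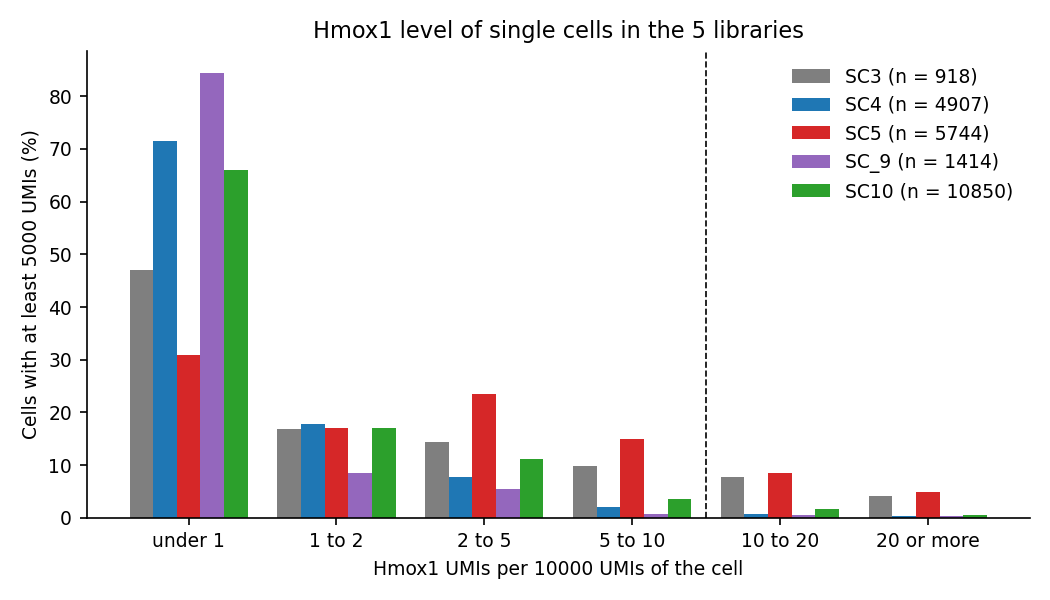
Share of cells with at least 5000 UMIs (y axis, percent of the library's cells) by Hmox1 UMIs per 10000 UMIs of the cell (x axis, 6 bins), with 1 bar per library and the threshold for Hmox1-high cells as a dashed line. SC5 (red) and SC3 (grey) extend to the right of the line, with 13.5% and 11.9% of their cells, while the other libraries have 0.919% to 2.29% there.

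The identity of the Hmox1-high cells as limb mesenchyme was checked with marker lists. All 5 FAP/mesenchymal progenitor markers (Prrx1, Cxcl12, Pdgfra, Ly6a, Cd34) were detected, at a summed 2043 CPM in Hmox1-high and 1394 CPM in Hmox1-low cells, with Ly6a the most abundant (1017 and 653 CPM). Prrx1, the gene of the Prx1 factor itself, was at 161 CPM in Hmox1-high and 189 in Hmox1-low cells. The 5 fibroblast markers summed to 11931 and 9948 CPM, led by Sparc (4986 and 4062). Myogenic markers summed to 0.914 CPM in Hmox1-high and 4.07 in Hmox1-low cells, with Pax7, Myod1 and Myf5 at 0 in the Hmox1-high cells. Endothelial markers summed to 9.42 and 4.18 CPM, led by Pecam1 at 2.74 and 1.37. Muscle fibre (3.47 and 3.02), erythroid (3.93 and 4.71), osteoblast (0.549 and 0.394), Schwann (0.366 and 0.525) and adipocyte (0 and 0.0375) lists were near 0 in both classes. Tenocyte markers were at 38.6 and 23.7 CPM, pericyte markers at 65.0 and 50.6 with Myh11 at 0 in Hmox1-high cells, and chondrocyte markers at 134 and 114, nearly all of it Sox9 (132 and 105). In the libraries used for the edgeR test, some of these lists differed between the classes. Tenocyte markers were at 272 and 1217 CPM in SC3, 300 and 38.8 in SC4 and 117 and 113 in SC10, and pericyte markers at 347 and 1932, 363 and 52.0, and 105 and 94.0. Endothelial markers were at 37.9 and 2.76 CPM in SC10. Their part in the results of the test was not tested. In SC_9, which did not enter it, chondrocyte markers were at 518 and 2757 CPM, led by Acan and Col2a1 respectively. The study detected its chondrocyte population at d5 post-fracture, the condition that the cell numbers give to SC_9.

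Macrophages are known to carry much heme oxygenase 1, so hematopoietic markers were followed in every library. The 13 markers summed to 71.4 CPM in Hmox1-high and 46.7 in Hmox1-low cells of SC5, led by Lyz2 (37.9) and Cd74 (30.5) respectively, with Marco at 0 in both. UMIs of 2 or more of these genes were found in 12 Hmox1-high cells (1.54%) and 55 Hmox1-low cells (2.00%). Without those cells Lyz2 was at 3.07 and 2.16 CPM, and Srxn1 differed by a log2 ratio of 0.81 instead of 0.79. In SC4 and SC10 the same markers stood far higher in the Hmox1-high class (654 against 12.4 CPM and 261 against 10.7 CPM). The edgeR test was therefore also run without such cells.

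Hmox1-high cells were shallower than Hmox1-low cells and divided less. Their median was 13098 UMIs against 18505, with 2822.5 against 3421.0 detected genes. Mitochondrial genes took 2.12% and 2.08% of UMIs. At least 1 UMI per 1000 on a list of 15 cell division genes was found in 117 Hmox1-high cells (15%, interval 12.6 to 17.7%) and in 1101 Hmox1-low cells (40.0%, 38.2 to 41.9%). Because depth and division moved with Hmox1, log2 ratios were also computed against Hmox1-low cells weighted to the depth of the Hmox1-high cells, and without dividing cells. Their part in the differences was not tested beyond that.

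Several NRF2 target genes were higher in Hmox1-high cells, with the cystine transporter gene Slc7a11 the furthest above. Of 21 listed targets 16 had a log2 ratio (of CPM + 1) above 0 in SC5, where 43.1% of all 2369 genes at 50 CPM or more did. The list median was 0.56, against -0.05 over those genes, and it was 0.57 with depth weighting and 0.57 without dividing cells. Only 11 of the 21 targets reached 50 CPM themselves, and the median of these was also 0.56. In 3 of the 21 genes (Slc7a11, Gclc and Gstm1) the difference was at least 2-fold with 50 CPM or more, a level of change that 33 of the 2369 genes (1.39%) reached upward and 9 (0.380%) downward. In SC5 these values describe 1 library and have no test. The test was made in SC3, SC4 and SC10, which the rule had not been made on, with edgeR's quasi-likelihood test on UMIs summed per library and class, the library as a block and Benjamini-Hochberg adjustment over all genes. SC_9, with 13 Hmox1-high cells, did not enter it. There 42 of 11466 genes (0.366%) were higher and 13 (0.113%) lower with Hmox1, and 864 had an unadjusted p under 0.05. Without cells holding 2 or more hematopoietic genes the counts of higher and lower genes were 24 and 14. With those cells kept, the counts were 276 and 68 without SC3, 33 and 25 without SC4, and 61 and 56 without SC10. Of the 21 NRF2 targets 4 were higher (Slc7a11, Gclc, Srxn1 and Sqstm1), none was lower and 17 had a fold change above 0. The list median was a log2 fold change of 0.65 (-0.06 over all genes tested). The list, with Srxn1 in it, had been chosen with earlier results of these data known. All 4 calls were also made without cells holding hematopoietic genes, and DESeq2 called 7 of the 21, where it called 0.820% of all genes higher and 0.0611% lower. With the threshold for the Hmox1-high class at 5 per 10000 in the same 3 libraries, Gclc and Slc7a11 were still called (edgeR adjusted p = 0.0357 and 0.0407), and Srxn1 and Sqstm1 were not (0.0825 and 0.0787). At that threshold SC_9 also reached 20 Hmox1-high cells, and with it in the fit Slc7a11 was not called either (0.0548).

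The antioxidant response element through which NRF2 acts has a short core that can be looked for in promoters. In RefSeq windows of 300 bases (GRCm38.p6, 250 before to 50 after each gene's start), the core TGACNNNGC, or GCNNNGTCA on the other strand, was present in 8 of the 17 NRF2 targets that had a window (47.1%), against 14.0% of 27025 genes. Gclc, Gsr, Abcc1 and Gsta4 had no window among those used here. For each of these 8 genes 1 match is shown 5′ to 3′ on the gene's strand with 10 bases on each side and the match in capitals, at chr2:152105542-152105570 for Srxn1, chr3:122245413-122245441 for Gclm, chr10:82859104-82859132 for Txnrd1, chr4:116685456-116685484 for Prdx1, chrX:164269207-164269235 for Pir, and, on the minus strand, chr4:149166061-149166089 for Pgd, chrX:74428919-74428947 for G6pdx and chr9:86695902-86695930 for Me1.
Srxn1: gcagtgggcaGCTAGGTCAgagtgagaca
Gclm: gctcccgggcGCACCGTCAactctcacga
Txnrd1: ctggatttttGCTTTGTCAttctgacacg
Prdx1: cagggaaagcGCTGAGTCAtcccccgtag
Pir: gcatagagagGCTGAGTCActcccccaaa
Pgd: atttcagagcTGACATTGCactgatcgga
G6pdx: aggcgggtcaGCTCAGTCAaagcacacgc
Me1: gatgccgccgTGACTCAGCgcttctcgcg
The log2 ratios of these genes in SC5 were 0.79 for Srxn1, 1.19 for Gclm, 0.56 for Txnrd1, 0.31 for Prdx1, 0.41 for Pir, 0.36 for Pgd, -0.23 for G6pdx and 0.21 for Me1. Of the NRF2 targets called by edgeR, Srxn1 had a match, Slc7a11 and Sqstm1 had a window without a match, and Gclc had no window. The list was made of known NRF2 targets, so the share with a match describes the list and not the Hmox1-high cells. A match is a description of the letters and not a binding site.

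Slc7a11, the transporter xCT that exchanges glutamate for the cystine needed to make glutathione, had the largest ratio after Hmox1 of any gene at 50 CPM. It was at 64.1 CPM (59.4 to 69.0) in Hmox1-high and 17.0 CPM (15.9 to 18.2) in Hmox1-low cells of SC5, 3.77-fold (95% interval 3.41 to 4.16). Its CPM in the 2 classes was 9.29 and 3.25 in SC3, 25.1 and 2.63 in SC4, 5.09 and 0.395 in SC_9 and 13.2 and 1.87 in SC10. The SC_9 value rested on 3 UMIs in Hmox1-high cells (ratio 12.9, counting interval 2.45 to 43.8). Hmox1-high cells were thus the higher class in all 5 libraries, while the level itself was highest in SC5 in both classes. The log2 fold change over SC3, SC4 and SC10 was 2.69 (SE 0.38, edgeR adjusted p = 0.00773). In SC5 it was seen in few cells at this depth, since 66.7% of Hmox1-high and 82.8% of Hmox1-low cells had no Slc7a11 UMI, and with depth weighting its log2 ratio moved from 1.85 to 2.01. Slc7a11 lies at chr3:49892526-50443614 (- strand, mm10).

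Gclc and Gclm encode the catalytic and the modifier subunit of glutamate-cysteine ligase, the first and limiting step of glutathione synthesis. Gclc (chr9:77754535-77794485) was at 51.8 CPM (47.7 to 56.3) in Hmox1-high and 22.6 CPM (21.3 to 23.9) in Hmox1-low cells of SC5, 2.29-fold (2.07 to 2.54). In SC3 Gclc was at 89.8 and 34.7 CPM, in SC4 at 31.4 and 14.7, in SC_9 at 104 and 20.1 and in SC10 at 62.2 and 19.6. The classes were ordered the same way in every library, and the log2 fold change in the tested libraries was 1.40 (SE 0.22, edgeR adjusted p = 0.0158), which became 0.0641 without SC10. Gclm (chr3:122245557-122270732) was at 24.8 and 10.3 CPM in SC5, 2.41-fold (2.07 to 2.79), and likewise higher in the Hmox1-high class of SC3 (35.6 and 14.6), SC4 (14.1 and 8.16), SC_9 (146 and 39.9) and SC10 (119 and 50.5). Its log2 fold change of 1.14 (SE 0.23) missed the threshold (edgeR adjusted p = 0.0698), and was below it against Hmox1-low cells drawn to the same depth (0.0426).

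Srxn1 encodes sulfiredoxin, which repairs peroxiredoxins that peroxide has over-oxidised, and was named as a marker of these cells along with Hmox1. That choice was made with earlier results of these data known. Srxn1 (chr2:152105516-152111376) was at 329 CPM (318 to 339) in Hmox1-high and 189 CPM (186 to 193) in Hmox1-low cells of SC5, 1.74-fold (1.67 to 1.80). In SC3 it was at 130 and 47.9 CPM, in SC4 at 135 and 69.2, in SC_9 at 102 and 28.4 and in SC10 at 111 and 44.3. The Hmox1-high class was the higher one in each library, and the Hmox1-low cells of SC5 had more Srxn1 than the Hmox1-high cells of the other 4 libraries. The log2 fold change over the tested libraries was 1.21 (SE 0.20, edgeR adjusted p = 0.0198). Single cells overlapped widely: the quartiles were 1.06, 2.47 and 4.85 UMIs per 10000 in Hmox1-high and 0.436, 1.27 and 2.75 in Hmox1-low cells, and 554 Hmox1-high cells (71.2%) lay above the Hmox1-low median.

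None of the other thiol, conjugation and NADPH genes of the list passed the edgeR test in the other libraries, though some had ratios in SC5 as large as those above. Txnrd1, thioredoxin reductase, was at 117 and 79.1 CPM (log2 ratio 0.56), with a log2 fold change of 0.70 in the other libraries that did not pass (edgeR adjusted p = 0.172, and 0.0404 against depth-drawn cells). Gstm1, a glutathione S-transferase, was at 107 and 44.5 CPM (1.25, and 0.91 with depth weighting) and was not called by edgeR (adjusted p = 0.0978) but was by DESeq2 (0.0225). Gsta4, which conjugates the lipid peroxidation product hydroxynonenal, was at 19.4 and 8.14 CPM (1.16), and Nqo1, the quinone reductase often used as the NRF2 reporter, at 10.5 and 4.85 CPM (0.98). The peroxiredoxin gene Prdx1 was at 1447 and 1166 CPM. The pentose phosphate gene G6pdx had a log2 ratio of -0.23, Pgd 0.36 and malic enzyme Me1 0.21, and thioredoxin Txn1 (-0.21) and glutathione reductase Gsr (-0.30) were slightly lower. DESeq2 also called Txnrd1 (adjusted p = 0.0430). The 14 antioxidant enzymes outside the NRF2 list had a median of -0.01 in SC5 and -0.12 in the other libraries, with none called by edgeR or DESeq2.

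**Figure D2:**
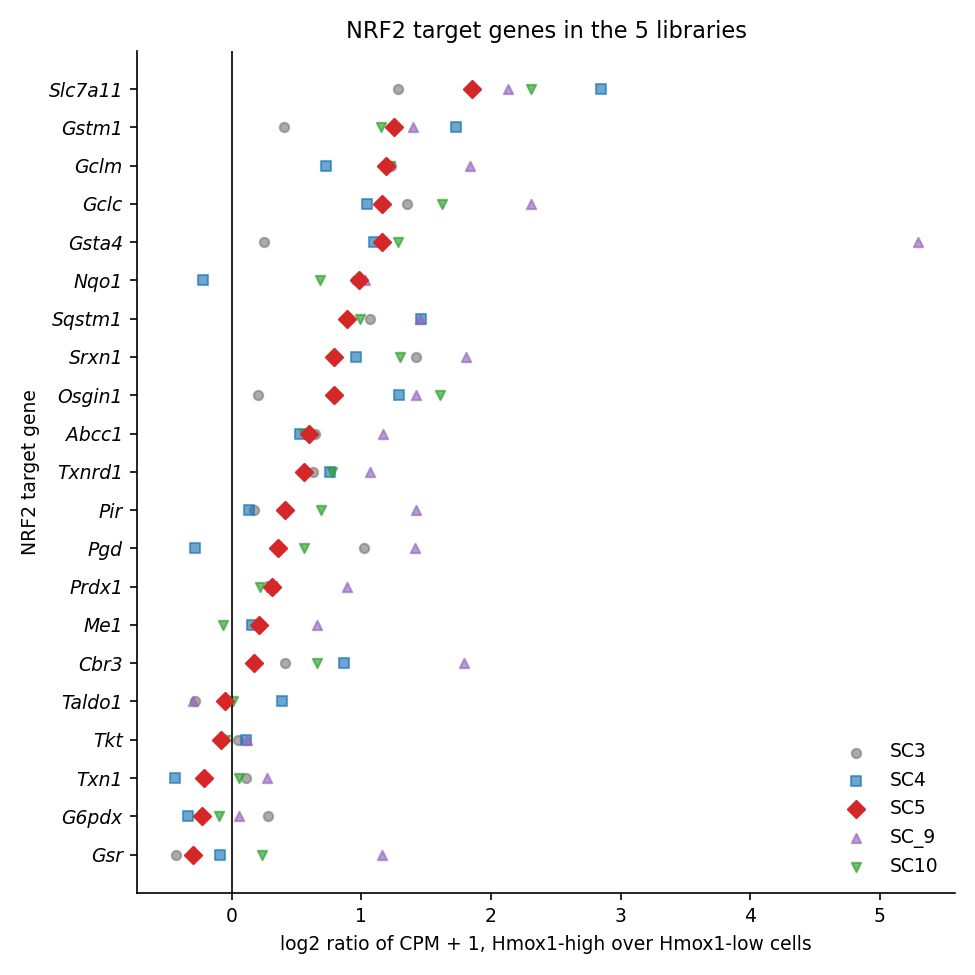
Log2 ratio of CPM + 1 between Hmox1-high and Hmox1-low cells (x axis) for the 21 NRF2 target genes (y axis), with 1 symbol per library. Slc7a11, Gclc, Gclm, Sqstm1 and Srxn1 lie right of 0 in all 5 libraries, while Gsr, G6pdx and Txn1 lie left of 0 in SC5.

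Sqstm1 encodes p62, the autophagy receptor that binds KEAP1 and is itself an NRF2 target. It was at 402 CPM (390 to 414) in Hmox1-high and 216 CPM (212 to 220) in Hmox1-low cells of SC5 (chr11:50199366-50210827), 1.86-fold (1.80 to 1.93). In SC3 Sqstm1 was at 913 and 435 CPM, in SC4 at 525 and 190, in SC_9 at 341 and 124 and in SC10 at 214 and 108. Uninjured SC3 had the highest levels in both classes, and the Hmox1-high class was higher in each library, with a log2 fold change of 1.14 (SE 0.19, edgeR adjusted p = 0.0221, and 0.0641 without SC10). In SC5 78.5% of Hmox1-high cells lay above the Hmox1-low median.

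Among the regulators, Nfe2l2 (NRF2) was at 189 and 116 CPM, 1.63-fold, and at a log2 fold change of 0.72 in the other libraries that did not pass (edgeR adjusted p = 0.166). The small MAF genes Mafg and Mafk had log2 ratios of 0.58 and 0.90, and Keap1 was at 18.9 and 22.9 CPM (-0.26). Of the 9 regulators 7 were above 0 in SC5 with a median of 0.26, which was 0.09 after depth weighting. In the other libraries edgeR called none and DESeq2 called Nfe2l2 (adjusted p = 0.0298). NRF2 is controlled mainly through its protein, which was not measured.

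Within SC5, 7 of the 21 NRF2 targets were followed over the range of Hmox1 levels. From cells under 1 Hmox1 UMI per 10000 through bins of 1 to 2, 2 to 5, 5 to 10, 10 to 20 and 20 or more, Slc7a11 was at 14.2, 22.0, 30.3, 44.9, 57.8 and 75.5 CPM. Srxn1 was at 187, 193, 244, 259, 307 and 368 CPM over the same bins, and Sqstm1 at 206, 234, 281, 337, 375 and 451. Gclc went from 20.3 to 63.2 CPM, Gclm from 9.27 to 33.3, Txnrd1 from 75.7 to 134 and Gstm1 from 42.4 to 131 between the lowest and the highest bin. Each bin was higher than the one before it for all 7 genes. These 7 were among the 16 targets above 0 between the classes, and none of the 5 below 0 was followed. The bins divide the same cells by the Hmox1 value that set the classes. The 21 targets summed to 3342 CPM in the lowest and 4386 CPM in the highest bin. The share of dividing cells fell over the same bins, from 40.6% to 13.6%.

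**Figure D3:**
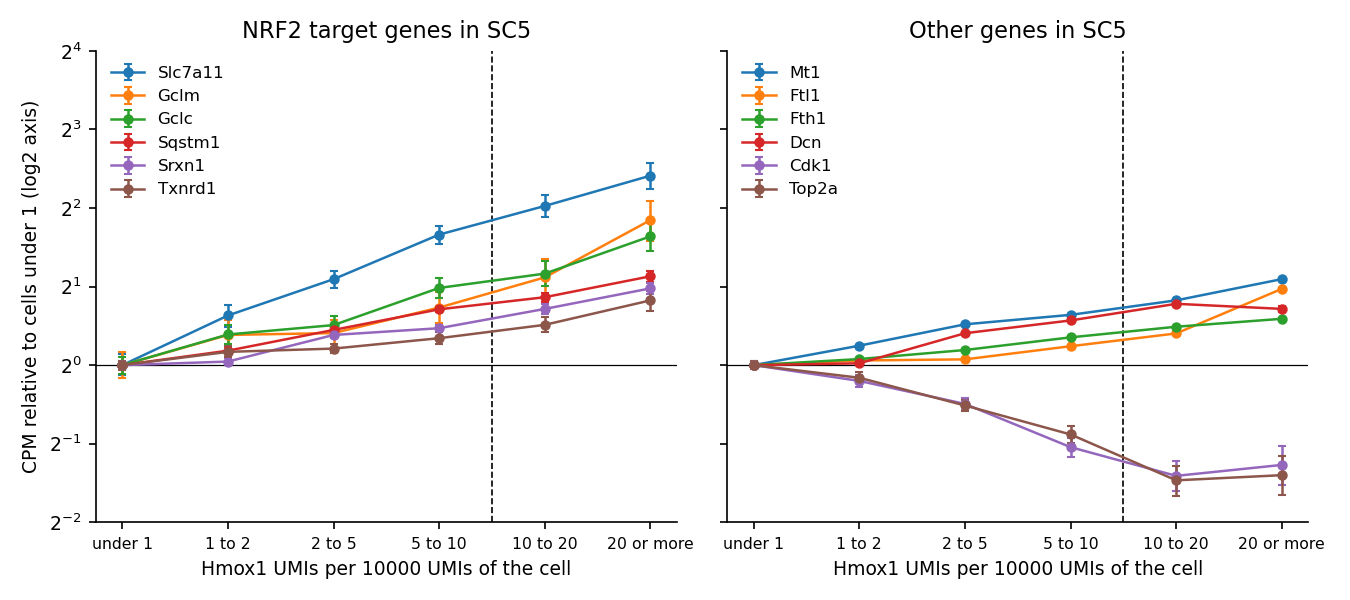
CPM in SC5 relative to cells under 1 Hmox1 UMI per 10000 (y axis, log2) over 6 bins of Hmox1 UMIs per 10000 (x axis), with 95% Poisson intervals as bars and the threshold as a dashed line. Slc7a11 climbs from 14.2 to 75.5 CPM without a step at the line, Top2a and Cdk1 fall, and Mt1, Ftl1, Fth1 and Dcn climb less.

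The NRF2 differences were also present in parts of the Hmox1-high class. In the 117 dividing Hmox1-high cells against the 1101 dividing Hmox1-low cells the log2 ratio of Srxn1 was 0.64, and it was 0.64 in the non-dividing ones. Slc7a11 was at 1.68 and 1.82, and Gclc at 1.29 and 1.14. In the shallower Hmox1-high cells (up to 13098 UMIs) Srxn1 had a ratio of 0.73 and Slc7a11 of 2.09, and in the deeper ones 0.81 and 1.87. Gclc was at 0.72 in the shallower and 1.21 in the deeper cells, and Gclm at 1.74 in dividing and 1.01 in non-dividing ones. The 12 Hmox1-high cells with 2 or more hematopoietic genes went both ways against the 55 such Hmox1-low cells. Their Srxn1 was at 130 CPM against 177 and their Gclm at 5.66 against 13.2. Slc7a11 was at 68.0 CPM against 17.8, Gclc at 108 against 16.0, Sqstm1 at 402 against 219 and Gstm1 at 102 against 44.2. Their Ftl1 was at 17913 CPM against 5446.

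Among genes that handle heme and iron, both ferritin chains stood higher in SC5. Ftl1 and Fth1, the light and heavy chains of ferritin that store the iron set free from heme, were at 7359 against 4819 CPM (1.53-fold) and 7616 against 5396 CPM (1.41-fold) in SC5. Of single Hmox1-high cells 70.4% lay above the Hmox1-low median for Ftl1 and 74.7% for Fth1. In the other libraries their log2 fold changes of 0.87 and 0.66 did not pass the edgeR test (adjusted p = 0.252 and 0.464), though DESeq2 called both (adjusted p = 0.00263 and 0.0323). Slc48a1, a transporter that carries heme into the cytosol, was at 50.2 and 22.1 CPM in SC5 (2.27-fold, 2.05 to 2.52, log2 ratio 1.04 with depth weighting), yet its log2 ratio was -0.74 in SC3 and its fold change in the tested libraries did not pass (edgeR adjusted p = 0.673). Hmox2, the constitutive heme oxygenase, was at 41.8 and 46.3 CPM, and biliverdin reductase Blvrb at 116 and 86.4. Over the 20 heme and iron genes the median was 0.16 in SC5 and 0.13 in the other libraries, 15 were above 0 in SC5, and edgeR called none of the 18 tested.

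The metallothionein genes Mt1 and Mt2, for small cysteine-rich proteins that bind zinc and copper, stood higher in Hmox1-high cells of SC5. Mt1 was at 6152 CPM in Hmox1-high and 3455 CPM in Hmox1-low cells (1.78-fold), and 79.3% of Hmox1-high cells lay above the Hmox1-low median. Mt2 was at 4833 and 2981 CPM. With depth weighting the log2 ratios moved from 0.83 to 0.57 and from 0.70 to 0.42. In the other libraries they were 0.82 and 1.0 and did not pass the edgeR test (adjusted p = 0.309 and 0.123), while DESeq2 called 2 of the 3 listed genes, Mt2 with an adjusted p of 9.74e-07. Mt3, a metallothionein outside the list picked out after its values were seen, was at 1.19 and 0.225 CPM in SC5 and lower in the other libraries (log2 fold change -3.52, edgeR adjusted p = 0.0392, 0.0718 against depth-drawn cells and 0.523 by DESeq2). Its log2 ratio was -3.32 in SC3, -0.29 in SC4 and -0.13 in SC10, and 0.87 in SC_9, which did not enter the test.

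Other stress lists had no gene called by edgeR in the other libraries. The 17 genes of the integrated stress response, which cells use when amino acids run short or proteins misfold, had a median of 0.31 in SC5 and 0.17 in the other libraries, with none called by DESeq2 either. Its factor Atf4 was at 479 and 389 CPM, and Slc3a2, the partner chain of xCT, at 404 and 290. The heat shock list had a median of -0.03 in SC5 and a median fitted log2 fold change of 0.58 in the other libraries. All 11 fitted values were above 0, edgeR called none and DESeq2 called Bag3 (adjusted p = 0.0242). Within single libraries 9 of the 11 genes were above 0 in SC3, 9 in SC4, 10 in SC10 and 5 in SC_9. Hspa1a was at 381 and 461 CPM in SC5 while the small heat shock gene Cryab was at 144 and 61.1. The 9 p53 targets had a median of 0.53 (0.57 with depth weighting) and 0.52 in the other libraries, where DESeq2 called Gadd45a (adjusted p = 0.0270), and the cell cycle inhibitor Cdkn1a was at 276 and 156 CPM, with a log2 ratio of 0.83 after weighting (edgeR adjusted p = 0.486 in the other libraries). The 18 glycolysis and hypoxia genes had medians of 0.08 and -0.21, and DESeq2 called Ndrg1 (adjusted p = 0.00831). The 9 immediate early genes (0.25 and 0.16) and the 6 plasminogen and coagulation genes (0.24 and 0.50) had none called by either tool.

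The chemokines Ccl8 and Ccl11 and the growth factor gene Csf1 were higher in the other libraries. The chemokine Ccl20 was lower. Also called higher by edgeR were the chemokines Cxcl9 and Cxcl10, described below, Ccl6 (adjusted p = 0.00441) and Pf4 (0.000369). Ccl6 and Pf4 were not tested without cells holding hematopoietic genes. The log2 ratio of Ccl6 was 0.00 in SC3, 3.12 in SC4 and 4.17 in SC10. That of Pf4 was -1.24 in SC3, 6.40 in SC4 and 5.34 in SC10. DESeq2 called Ccl6 (adjusted p = 5.11e-09) and not Pf4 (0.310). Ccl8, which draws monocytes, was at 64.3 CPM in Hmox1-high and 25.9 in Hmox1-low cells of SC5 and rose with Hmox1 in the other libraries by a log2 fold change of 2.05 (SE 0.28, edgeR adjusted p = 0.00652). Ccl11, eotaxin, which draws eosinophils and was picked out after its values were seen, was at 119 and 54.8 CPM and rose by 1.94 (SE 0.27, adjusted p = 0.00773). Csf1, the growth factor of macrophages, was at 110 and 62.5 CPM and rose by 1.24 (SE 0.21, adjusted p = 0.0221). Ccl20, which draws T and dendritic cells and was picked out after its values were seen, was at 8.50 and 15.8 CPM in SC5 and fell by 2.65 on the log2 scale in the other libraries (SE 0.48, edgeR adjusted p = 0.0437, DESeq2 0.298). Ccl8, Ccl11 and Csf1 stayed under 0.05 without cells holding hematopoietic genes and against depth-drawn Hmox1-low cells, but Csf1 was not called with every cell thinned to 5000 UMIs (edgeR adjusted p = 0.0606). With the threshold at 5 Hmox1 UMIs per 10000 in the same libraries Ccl8 passed (adjusted p = 0.0398) and Ccl11 and Csf1 did not (0.0890 and 0.0901). With SC_9 added at that threshold none of the 3 passed (edgeR adjusted p = 0.108, 0.492 and 0.0575). In SC5 itself the log2 ratio of Ccl8 moved with depth from 1.28 to 0.36, that of Ccl11 from 1.10 to 0.79 and that of Csf1 from 0.81 to 0.68. Ccl8 and Csf1 belong to the list of 18 chemokines and cytokines (median 0.24 in SC5, 0.34 in the other libraries, 2 called higher by edgeR, which called 0.366% of all genes higher, and 3 by DESeq2, which added Il33 and called 0.820% of all genes higher, and none lower). Its member Ccl2, the main attractant of monocytes, was at 2427 and 2294 CPM, and Cxcl12, the FAP chemokine, at 727 and 441 CPM, a log2 ratio of 0.72 that became 0.25 with depth weighting.

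Beside Slc7a11, the genes named here were among the furthest above in SC5, and no list was fixed for them as a group. Saa3, serum amyloid A, was at 346 and 105 CPM, Apod, a lipid carrier, at 85.9 and 27.0, complement C3 at 114 and 38.8 (2.95-fold), C1s1, a protease of the classical complement pathway, at 73.9 and 29.7, and Gsn, the actin-severing protein gelsolin, at 411 and 173. Lpl, lipoprotein lipase, was at 135 and 54.2 CPM, and the interferon-induced Ifi203 and Ifi27l2a at 91.9 and 35.1 and at 237 and 84.2. Also named were Islr, a marker of mesenchymal progenitors (97.4 and 39.6), Lbp, which binds bacterial lipopolysaccharide (69.6 and 29.0), and D830025C05Rik (66.1 and 25.4). All 33 genes at 2-fold or more had a log2 fold change above 0 in the tested libraries, with a median of 0.95, where 42.3% of genes did, and 7 were called, where edgeR called 0.366% of all genes higher (Slc7a11, Ifi203, Lpl, Ccl8, Gclc, Ccl11 and Serpina3n). They were higher in 33 of 33 cases in SC4 and in SC10, in 24 in SC3 and in 10 in SC_9, against 44.0%, 40.2%, 50.5% and 57.3% of all genes at that level. In SC3 Saa3 had 0 UMIs in Hmox1-high cells and 10 in Hmox1-low cells, so it did not share 1 direction and is named only as a member of the chemokine and cytokine list.

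The size of most of these differences changed with depth. Against Hmox1-low cells weighted to the same depth, the 33 genes were all still above 0 with a median log2 ratio of 0.65, but only Slc7a11 (2.01), Saa3 (1.2) and Slc48a1 (1.04) reached 2-fold. C3 went from 1.54 to 0.64, Apod from 1.64 to 0.67, Gsn from 1.24 to 0.58, Ifi27l2a from 1.48 to 0.42 and Serpina3n, a protease inhibitor of the acute phase, from 1.09 to 0.23. Gclc (1.16 to 0.99), Gclm (1.19 to 1.06), Srxn1 (0.79 to 0.70) and Sqstm1 (0.89 to 0.78) moved little. In the other libraries, drawing Hmox1-low cells to the depth of the Hmox1-high ones left Slc7a11, Gclc, Srxn1, Sqstm1, Ccl8, Ccl11, Csf1 and Lpl called, and Ifi203 (edgeR adjusted p = 0.111) and Serpina3n (0.344) not called. Lpl was not called without cells holding hematopoietic genes (edgeR adjusted p = 0.0665), and without SC4 neither Lpl (0.0756) nor Serpina3n (0.347) was called.

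**Figure D4:**
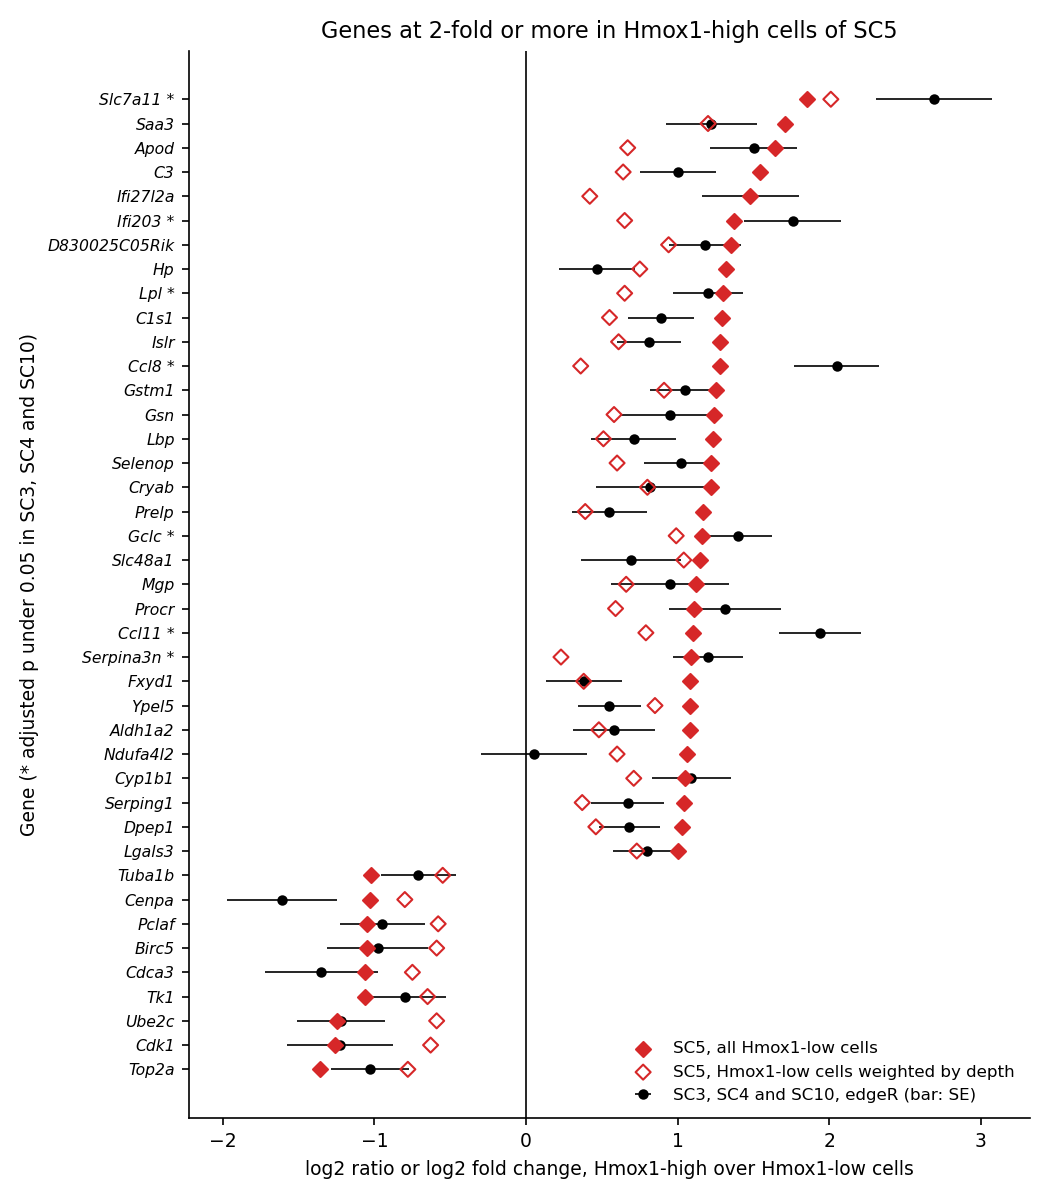
Plot of 32 of the 33 genes at least 2-fold higher and the 9 at least 2-fold lower in Hmox1-high cells of SC5 (y axis), by log2 ratio in SC5 against all Hmox1-low cells (filled diamonds), against depth-weighted Hmox1-low cells (open diamonds) and by edgeR log2 fold change with SE in SC3, SC4 and SC10 (black). For most genes, such as C3 (1.54 and 0.64), the open diamond lies well inside the filled one, while for Slc7a11 (1.85 and 2.01) it does not.

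Matrix and lysosomal genes showed the same dependence on depth. All 16 lysosome and lipid genes were above 0 in SC5, with a median of 0.60 that was 0.27 after weighting, and in the other libraries the median was 0.33 with none called. Psap and Grn, which serve lysosomal enzymes, had log2 ratios of 0.71 and 0.78, and 0.36 and 0.34 after weighting. The protease Ctsl was at 420 and 268 CPM. The 19 fibrous matrix genes had a median of 0.30 in SC5, -0.05 after weighting and 0.03 in the other libraries with none called. Decorin (Dcn) was at 1753 and 1043 CPM, fibronectin (Fn1) at 877 and 644, and tenascin C (Tnc), a matrix protein of injured tissue, at 203 and 300.

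Cell division genes were lower in the Hmox1-high class. All 15 genes of the list were below 0 in SC5, with a median of -1.05 (-0.59 after weighting) and a summed 524 CPM in Hmox1-high against 1057 in Hmox1-low cells. Top2a, the topoisomerase that untangles DNA at mitosis, was at 32.8 and 85.8 CPM, 2.61-fold higher (2.35 to 2.92) in Hmox1-low cells. The 9 genes at 2-fold or more lower were Top2a, Cdk1, Ube2c, Tk1, Cdca3, Birc5, Pclaf, Cenpa and Tuba1b, of which 4 (Top2a, Cdk1, Ube2c and Birc5) are on the division list. The next genes down were Tipin (-1.0), AC160336.1 (-0.98), Dnajc9 (-0.97), Spc24 (-0.95), Smc2 and Smc4 (both -0.93), and Birc5, of the division list, had the other direction in SC3 (log2 ratio 0.16, from 3 UMIs in Hmox1-high cells). All 9 were below 0 in the tested libraries (median -1.03), and edgeR called none of them or of the 15. Dividing cells were 8.0% of Hmox1-high and 37.1% of Hmox1-low cells in SC4 and 21.8% and 35.4% in SC10, while they were 15.4% and 15.7% in SC_9 and 0.917% and 1.02% in uninjured SC3. Depth weighting left no division gene at 2-fold, and the 1 gene that was then 2-fold lower was Cd74, a macrophage and B cell gene (2.19 CPM, against 87.2 weighted).

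Of the 8 contractile genes, which mark myofibroblasts and smooth muscle, 7 were below 0 in Hmox1-high cells of SC5, none of them at 2-fold, with a list median of -0.50 (-0.45 after weighting) and of -0.88 in the other libraries, none called by edgeR and Tpm2 called lower by DESeq2 (adjusted p = 0.0345). The contractile median was -2.41 in SC3, -0.36 in SC4 and -0.48 in SC10, and pericyte markers, which hold smooth muscle genes, were at 347 CPM in Hmox1-high and 1932 in Hmox1-low cells of SC3. Their part in the contractile difference was not tested. Smooth muscle actin (Acta2) was at 164 and 294 CPM and tropomyosin (Tpm2) at 201 and 285. In the other libraries, where edgeR called 0.113% of all genes lower, it called 2 of the 4 chondrocyte markers tested lower (Col2a1 and Acan), 4 of 4 erythroid (Hba-a1, Hba-a2, Hbb-bs and Hbb-bt), 1 of 5 pericyte (Myh11) and 1 of 1 osteoblast markers (Ibsp). DESeq2, which called 0.0611% of all genes lower, called Acan, Myh11 and Ibsp of these. By single libraries the log2 ratio of Ibsp was -4.20 in SC3, -0.22 in SC4 and -4.05 in SC10. It was 1.07 in SC_9, which did not enter the test. Col2a1 had a log2 ratio of 0.46 in SC4. The 4 globin calls were not made against depth-drawn cells (edgeR adjusted p = 0.121 for Hba-a1, 0.344 for Hba-a2 and 0.65 for Hbb-bs, with Hbb-bt not tested) or by DESeq2 (0.105 to 0.530), and the erythroid list summed to 6.19 CPM in Hmox1-high and 1387 CPM in Hmox1-low cells of SC3.

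**Figure D5:**
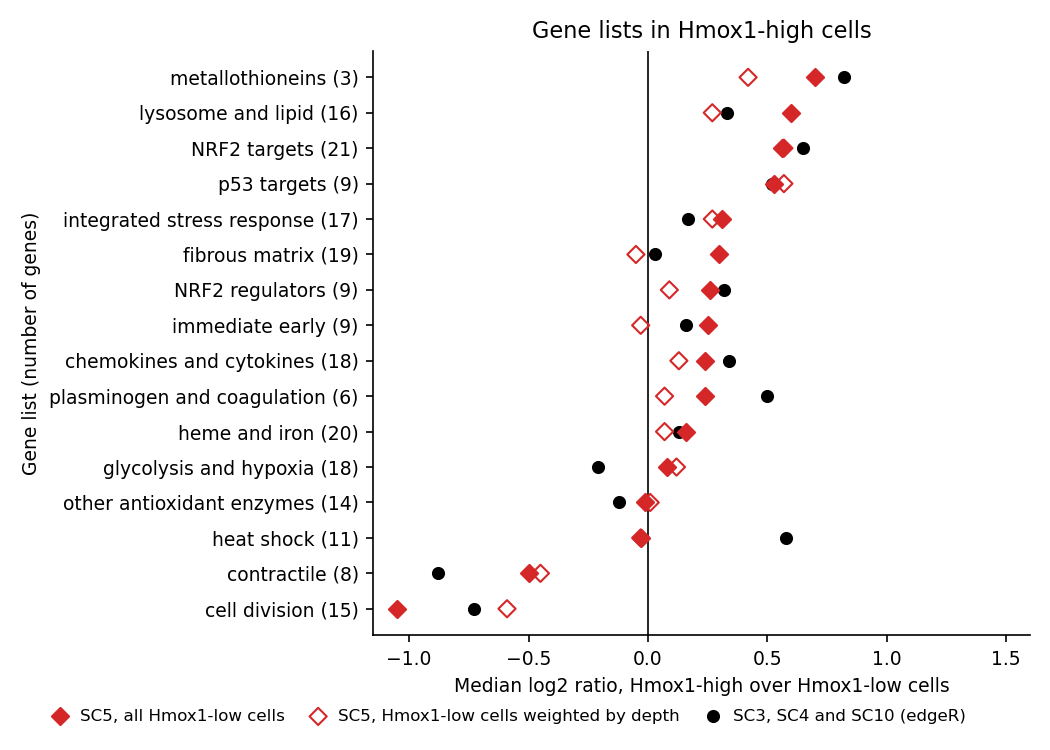
Median log2 ratio between Hmox1-high and Hmox1-low cells (x axis) for 16 gene lists (y axis, number of genes in brackets), in SC5 against all (filled) and depth-weighted (open) Hmox1-low cells, and in SC3, SC4 and SC10 (black). The NRF2 targets lie at 0.56, 0.57 and 0.65, the p53 targets at 0.53, 0.57 and 0.52 (from single-library medians of -0.34 in SC3, 0.71 in SC4 and 0.58 in SC10), and the lysosome and lipid list at 0.60, 0.27 and 0.33.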

How the data were processed

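Single-cell 3' libraries were made with the Chromium v.2 kit per the labels. The authors counted UMIs with Cell Ranger (3.1.0 in the matrix header) on mm10, and they deposited raw counts per gene and barcode, without normalization. Cells were filtered as the report states. The members and gene lists were chosen with earlier results of these data known, and Srxn1 among them. UMIs were summed over cells and scaled to CPM, and ratios used CPM + 1. Poisson and binomial intervals cover counting error only. Doublets were not called, and leaving out the 5% of cells with most UMIs was tried instead. Sums per library and class of SC3, SC4 and SC10, with at least 20 cells a class and Hmox1 removed, were fitted in edgeR 4.0.16 (R 4.3.3, TMM, filterByExpr, library as block), with DESeq2 1.42.0 as an alternative, and checked on simulated data. With 1 pool of 2 mice per library, p-values measure the spread between 3 libraries of different conditions. Named genes were the 15 largest ratios each way at 50 CPM in SC5 with 1 direction in the tested libraries, and well-known or most changed list members. Alternatives changed the Hmox1 and depth thresholds, cells, scaling, tool and libraries. Of 31055 gene identifiers 31011 (99.9%) were found in GENCODE M21, which gave positions. The values of 1 gene at 2-fold are not reported here.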

Additional observations from a re-analysis of the deposited data

Results flagged for a closer look

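Several genes went the other way in SC_9, where 13 cells were Hmox1-high, and the differences from SC5 were not tested. The log2 ratio of Hmox1-high to Hmox1-low cells was -3.41 for Saa3 in SC_9 against 1.71 in SC5, from 1 UMI in the 13 cells (1.70 against 27.6 CPM, a ratio of 0.0614 with a counting interval of 0.00155 to 0.343). It was -1.39 for Apod (62 UMIs) against 1.64, -0.80 for Hp against 1.32, -0.73 for Lpl against 1.30, -0.50 for C1s1 against 1.29, -0.46 for C3 against 1.54 and -0.23 for Gsn against 1.24. Of the 9 genes at least 2-fold lower in SC5, 4 were below 0 in SC_9 and the others above it, with Pclaf at 0.54 against -1.05. AC160336.1 was at 0.21 in SC_9 against -0.98. The median depth of the SC_9 cells was 32816 UMIs in the Hmox1-high and 36146 in the Hmox1-low class, and 3 of the 13 cells (23.1%) held 2 or more hematopoietic genes. A barcode also found in another library was carried by 7 of the 13 cells (53.8%) and by 806 Hmox1-low cells (61.3%) of SC_9.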

How the results depend on the processing

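The share of Hmox1-high cells in SC5 was 13.5% and became 4.98% at 20 or more and 28.6% at 5 or more Hmox1 UMIs per 10000, 11.8% at 10000 UMIs a cell and 16.0% after thinning. Genes at 2-fold higher in SC5 (33) became 20 at 5 or more, 17 against cells with 0 Hmox1 UMIs, 19 without dividing cells, 3 with depth weighting and 57 at 20 CPM. Genes at 2-fold lower (9) became 22 at 20 or more, 2 at 5 or more, 4 at 10000 UMIs, 15 after thinning, 1 with depth weighting, 18 as a mean over cells and 30 at 20 CPM. The libraries with 20 cells a class changed with some settings: SC_9 entered at 5 or more, SC4 left at 20 or more and SC3 left at 10000 UMIs. Genes called higher by edgeR (42) became 4 at 5 or more with SC_9 (Gclc, Tac1, Ctss and Wfdc17) and 17 without it, 170 at 10000 UMIs (276 without SC3 alone), 24 without cells holding hematopoietic genes, 94 by DESeq2, 179 without the filter on low counts, 152 with SC5 and 22 with SC_9, and 33 to 276 without 1 library, the last without SC3. Genes called lower (13) became 38 at 20 or more (25 without SC4 alone), 1 at 5 or more with SC_9 (3110079O15Rik) and 1 without it (Mt3), 46 at 10000 UMIs (68 without SC3 alone), 7 by DESeq2, 99 without the filter and 92 with SC5, and 25 to 68 without 1 library (56 without SC10). Of the 55 calls 35 remained without cells holding hematopoietic genes and 39 against depth-drawn cells, and 28 to 48 without 1 library. The median of the NRF2 list was 0.34 to 0.74 in SC5 and 0.30 to 0.99 in the other libraries over the alternatives. The cause of these changes was not tested.

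Some single genes changed sign. In SC5 Ccl2 was -0.04 at 20 or more, -0.02 without dividing cells and -0.03 with depth weighting, Cxcl9 -0.42 and Cxcl10 -0.03 against cells with 0 Hmox1 UMIs, Tyrobp -0.08 without cells holding hematopoietic genes and Me1 -0.06 after thinning. In the other libraries G6pdx was 0.14 at 20 or more, 0.05 at 5 or more with SC_9 and 0.01 without it, -0.22 to 0.05 without 1 library (above 0 without SC4) and 0.03 against depth-drawn cells. With the libraries changed as above, Gpx3 was -0.05 at 20 or more and -0.08 at 10000 UMIs, Dcn -0.17 and AC160336.1 0.15 at 20 or more, Me1 -0.05 at 10000 UMIs and -0.04 without SC3, and Ccl2 -0.01 to 1.07 without 1 library (below 0 without SC3). Prrx1 was 0.01 against cells with 0 Hmox1 UMIs, 0.08 at 10000 UMIs, 0.00 without the cells with most UMIs, 0.01 after thinning, 0.00 by DESeq2 and -0.10 to 0.06 without 1 library (above 0 without SC3). The fits with depth-drawn cells, with SC_9 and at 5 or more without SC_9 were chosen after seeing the data. The 2 Hmox1 classes were paired within each library by the block of the fit. Between conditions no paired analysis was possible because each had 1 library and the labels give no replicate numbers. Genes under about 10 CPM, such as Nqo1, were limited by depth.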

Other observations

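Of the other genes called in SC3, SC4 and SC10, 6 were picked out here after their values were seen, and no list was fixed for them. Ifi207 (log2 fold change 1.59, edgeR adjusted p = 0.0104), the immunity-related GTPases Irgm1 (1.54, adjusted p = 0.0353) and Iigp1 (1.47, adjusted p = 0.0392), the chemokines Cxcl9 (2.02, adjusted p = 0.0173) and Cxcl10 (1.32, adjusted p = 0.0177), and the adhesion molecule Icam1 (1.06, adjusted p = 0.0392) were higher in the Hmox1-high class of SC3, SC4 and SC10. In SC5, Cxcl10 was at 161 CPM in Hmox1-high and 106 CPM in Hmox1-low cells, Icam1 at 68.1 and 38.7, Ifi207 at 33.3 and 14.7, Iigp1 at 16.6 and 7.09, Cxcl9 at 16.1 and 9.50 and Irgm1 at 10.9 and 3.39. Weighted by depth, these log2 ratios in SC5 were 0.19 for Cxcl10, 0.51 for Icam1, 0.66 for Ifi207, 0.40 for Iigp1, 0.27 for Cxcl9 and 0.77 for Irgm1. Against depth-drawn cells Icam1 (adjusted p = 0.0718) and Iigp1 (adjusted p = 0.170) were not called by edgeR in the other libraries. With the threshold at 20 or more Hmox1 UMIs per 10000, which left SC3 and SC10 in the fit, Irgm1 (edgeR adjusted p = 0.806), Iigp1 (0.385) and Icam1 (1.0) were not called. Ifi207 was not called at 10000 UMIs a cell (0.286), Cxcl9 without SC10 (0.0775), Irgm1 without SC3 (0.163) and Icam1 without SC4 (0.0683). At 5 or more Hmox1 UMIs per 10000, Cxcl10 was not called with SC_9 in the fit (edgeR adjusted p = 0.276) or without it (0.0650).

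Of the 13 hematopoietic markers 8 were tested in the other libraries, and edgeR called 3 of them higher (Lyz2, Tyrobp and Mrc1), where it called 0.366% of all genes higher. Without cells holding 2 or more hematopoietic genes Tyrobp and Mrc1 were too low to be tested, and none of the markers was called. Lyz2 was at 402 CPM in Hmox1-high and 3.13 CPM in Hmox1-low cells of SC4, at 163 and 2.94 in SC10, and at 3.1 and 5.14 in SC3. Its log2 fold change of 5.56 (edgeR adjusted p = 0.00824) had an adjusted p of 0.906 without cells holding 2 or more hematopoietic genes, which were 2 of 50 Hmox1-high cells in SC4 and 6 of 248 in SC10. In SC5 Tyrobp was at 12.0 and 3.67 CPM, and its log2 ratio was -0.08 without such cells.

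Lgals3, galectin 3, a lectin of fibroblasts and macrophages also picked out after its values were seen, was at 488 CPM in Hmox1-high and 243 CPM in Hmox1-low cells of SC5.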
